A study of Mus musculus with 20 samples.

Results

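The genes described here are 10 markers of tissue macrophages, Lyz2, Csf1r, Ptprc, Emr1, Cd68, Mrc1, Cx3cr1, Gp49a, C1qa and C1qb, measured by RNA-seq in embryonic mouse hearts with deletion of Kmt2d. They were chosen by symbol in the gene table, which lists 33495 genes, and all 10 symbols were found. Kmt2d encodes a histone H3K4 methyltransferase, and the study asked how gene expression in the heart changes when it is deleted in different cardiac cell populations. The 20 libraries came from 3 Cre lines on a C57BL/6 background. Mutants carried Cre, Kmt2d fl/fl and mTmG/+, and controls carried Cre, Kmt2d fl/+ and mTmG/+, so that every embryo expressed Cre and held the mTmG membrane-fluorescence reporter, and control hearts had already lost 1 allele of Kmt2d where Cre was active. Mesp1Cre, active in early mesoderm, was studied in E9.0 whole hearts (4 mutants and 4 controls), although the protocol text gives E11.5 for all embryos. Mef2cAHF::Cre, active in precursors of the anterior heart field, was studied in E11.5 right ventricles with outflow tracts (3 libraries labelled mutant and 3 labelled control). Tnnt2::Cre, active in cardiomyocytes, was studied in E11.5 whole hearts (3 mutants and 3 controls). The sources do not say whether a library holds 1 heart or several, so p-values measure the spread between libraries only.

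Macrophages enter the embryonic heart early, at first from the yolk sac, and clear dying cells, and resident macrophages also take part in the growth of vessels and valves. Survival of the lineage depends on the receptor CSF1R, and its identity on the transcription factor PU.1, which binds an ETS motif and is encoded by Spi1. Lyz2, the secreted antibacterial enzyme lysozyme M, is shared by macrophages, monocytes and neutrophils, whereas the complement subunits C1qa and C1qb and the adhesion receptor Emr1 (F4/80) are typical of mature tissue macrophages. No cells were sorted. A lower level in bulk RNA may therefore come from fewer macrophages, from less RNA of the gene per macrophage or from other cells that express it. These cannot be told apart here.

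The results turn on Lyz2 and on the gene row called Gp49a, and the 250 bases before the start of each are shown because they were the genes called between genotypes. Both are RefSeq sequences of build GRCm38.p6, written from 5′ to 3′ on the strand of the gene, with the ETS core GGAA and its reverse complement TTCC in capitals. The Lyz2 promoter lies at chr10:117282273-117282522 on the minus strand. The promoter for Gp49a, found through its present RefSeq symbol Lilr4b, lies at chr10:51480362-51480611 on the plus strand. The called row also covers another gene, Lilrb4, whose promoter is not shown.
Lyz2: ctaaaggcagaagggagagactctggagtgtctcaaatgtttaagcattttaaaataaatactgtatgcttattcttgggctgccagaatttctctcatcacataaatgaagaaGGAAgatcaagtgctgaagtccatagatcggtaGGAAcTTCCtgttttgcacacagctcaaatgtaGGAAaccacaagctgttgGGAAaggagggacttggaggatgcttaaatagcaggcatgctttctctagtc
Gp49a (Lilr4b): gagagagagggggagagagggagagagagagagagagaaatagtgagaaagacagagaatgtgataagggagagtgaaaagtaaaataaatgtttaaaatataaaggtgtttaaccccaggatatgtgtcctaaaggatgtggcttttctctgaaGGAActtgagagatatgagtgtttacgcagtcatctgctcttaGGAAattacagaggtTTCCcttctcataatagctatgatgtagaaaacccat
The core was present 5 times before Lyz2 and 3 times before Gp49a, and 93.4% of the 32851 promoters of the table held it at least once, with a median of 3.00 per promoter. The longer PU.1 word GAGGAAGT, searched on both strands from 250 bases before to 50 bases after the start, was in 0 of the 8 promoters found for 7 of the 10 genes and in 3.20% of all promoters. The shorter core was searched after the longer word had given no match. These letters are described only as sequence, and no binding was measured here.

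In the build of the gene table (mm9), Lyz2 lies on chromosome 10 at 116714390 to 116719343 on the minus strand. Of its 50-base words 15.4% also occur in Lyz1, the neighbouring gene for a second lysozyme, so that reads may be divided between them. The row called Gp49a lies on the same chromosome at 51200438 to 51216419 on the plus strand. It covers 2 annotated genes, Gp49a at 51200438 to 51206122 and Lilrb4 at 51200446 to 51216419, which both encode immunoglobulin-type receptors of myeloid and mast cells, and its 3484 bases equal the joined exons of both. Every value for Gp49a below is therefore a value for the 2 genes together. Of the exonic bases of Csf1r 16.7% lie opposite exons of Hmgxb3, and the sources do not say whether strand was used in counting.

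Reads per library ran from 21727258 to 45341870. Kmt2d, listed under its older symbol Mll2, was lower in Mesp1Cre mutants (126, 140, 138 and 129 CPM, reads scaled to a common library total by TMM) than in their controls (163, 154, 158 and 150), the change being -0.21 on the log2 scale with an SE of 0.07 (FDR = 0.0764). The Tnnt2::Cre mutants had 113, 118 and 122 CPM and the controls 167, 156 and 126 (-0.35 ± 0.12, FDR = 0.327). FDR here and below is the Benjamini-Hochberg adjusted p of the edgeR quasi-likelihood test over all genes tested. In Mef2cAHF::Cre the libraries labelled mutant had more Kmt2d reads (183, 184 and 190 CPM) than those labelled control (142, 152 and 153), with a change of 0.32 ± 0.06 (FDR = 0.0359). This call was lost when labelled mutant 1, 2 or 3 or labelled control 1 or 3 was left out (FDR = 0.0605 to 0.152, change 0.28 to 0.34). The counts cover the whole gene, not the floxed exons alone. The names of the table columns call each Mef2cAHF::Cre library by the opposite genotype, and reading the genotypes from these names reverses every sign given for this line. Both readings are given throughout. The cardiomyocyte list of 8 genes summed to 16367 CPM or more in every library, as a heart sample should, and the lymphocyte list of 8 genes to at most 1.97 CPM.

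At E11.5 all 10 genes were detected in every library, at low levels. On the FPKM scale of the authors, which is per length and so allows genes to be compared, Lyz2 had the highest level of the 10 genes in every group except the Mesp1Cre mutants. Its mean was 23.2 FPKM in Tnnt2::Cre controls, against 3.32 for Cd68, a lysosomal membrane protein of phagocytes, 1.30 for Csf1r and 0.387 for Emr1. In Mesp1Cre mutants the order turned, with a mean of 5.0 FPKM for Cd68 and 0.783 for Lyz2. The 10 genes together summed to between 45.6 and 71.4 CPM in the E11.5 libraries and to between 8.06 and 22.5 CPM in the E9.0 libraries.

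**Figure D1:**
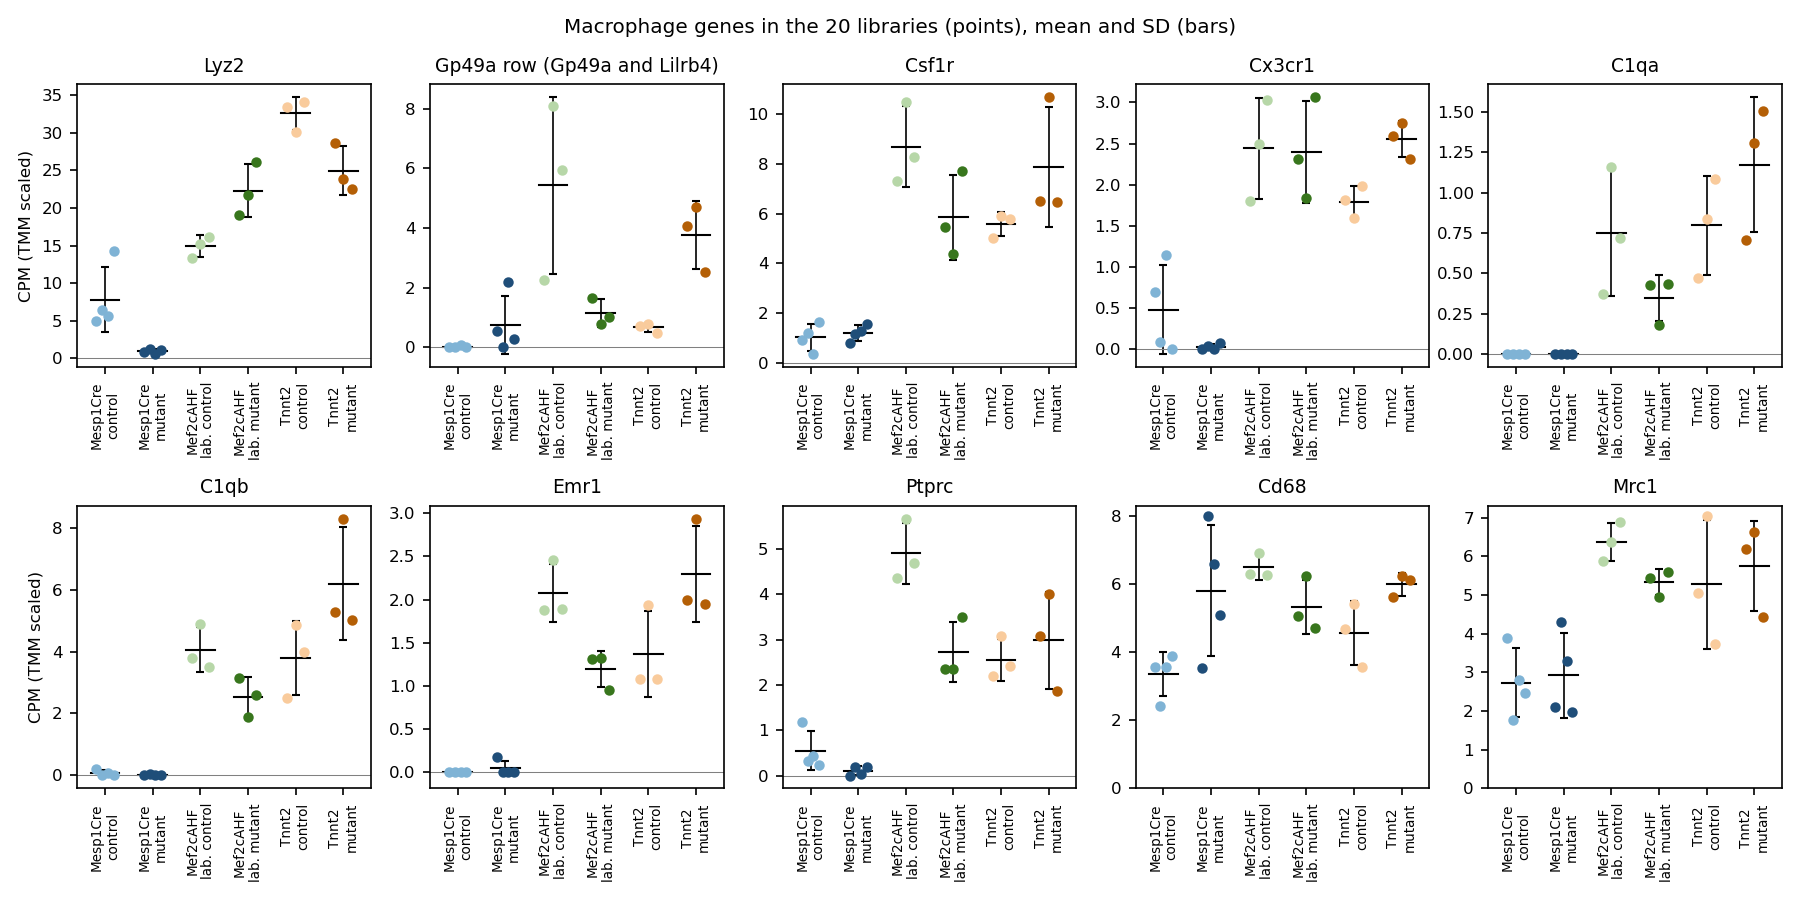
Level of each of the 10 genes in CPM after TMM scaling (y axis, linear, own range in each panel) in the 6 groups (x axis), with 1 point per library and the mean and SD as bars; lab. stands for labelled. Lyz2 is lowest in the 4 Mesp1Cre mutants, at 0.554 to 1.21 CPM, and the Gp49a row is highest in the Mef2cAHF::Cre libraries labelled control and in the Tnnt2::Cre mutants.

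To ask how these genes differ between heart stages, control whole hearts at E9.0 (Mesp1Cre) were compared with control whole hearts at E11.5 (Tnnt2::Cre). Stage cannot be told apart here from Cre line, or from sequencing lanes, since the libraries of 1 line were sequenced together per the labels. Of the 10 genes, 8 were called lower at E9.0 and 0 higher, while 19.6% of 16697 genes were called lower and 38.3% were called in either direction. For 8 of the 10 genes the groups did not overlap, against 45.4% of all genes tested. Emr1, C1qa, C1qb and the Gp49a row had under 10 reads in every E9.0 control and were tested only because of their reads at E11.5. Ptprc, with too few reads for the test within Mesp1Cre, also entered through its reads at E11.5. The count of 8 and the FDR values of these genes therefore carry no weight as support. When at least 10 counts were required in every library, Lyz2, Cd68 and Mrc1 were left, and Lyz2 (-2.07) and Mrc1 (-0.95) passed. The complement genes and the adhesion receptor were nearly absent from the earlier hearts. Emr1 had 0 reads in all 4 E9.0 controls and 46, 67 and 35 reads at E11.5, and C1qa had 0 reads in all 4 against 20, 29 and 35. Set against a floor of 3 reads per library, Emr1 was at least 11.53-fold and C1qa at least 6.72-fold higher at E11.5. C1qb had 5, 0, 2 and 0 reads in the E9.0 controls and 106, 168 and 129 at E11.5, a log2 fold change of -5.68 ± 0.70 (SE, FDR = 1.0e-04).

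The Gp49a row had 0, 0, 2 and 0 reads in E9.0 controls and 31, 27 and 16 at E11.5 (-4.79 ± 0.90, FDR = 0.00149). Csf1r, the receptor for the macrophage growth factors CSF1 and IL34, was at 0.919, 1.2, 0.356 and 1.67 CPM at E9.0 and at 5.03, 5.91 and 5.78 CPM at E11.5 (-2.40 ± 0.40, FDR = 7.58e-04). Ptprc, the pan-leukocyte phosphatase CD45, was at 1.18, 0.330, 0.435 and 0.244 CPM and at 2.19, 3.07 and 2.41 CPM (-2.18 ± 0.52, FDR = 0.00625). The 2 groups did not overlap for any of these genes. The FDR values of the Gp49a row and Ptprc carry no weight as support, since both were tested only because of their reads at E11.5.

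Lyz2 was present at E9.0, at 5.0, 6.43, 5.62 and 14.2 CPM, and higher at E11.5, at 33.5, 30.1 and 34.1 CPM (-2.03 ± 0.30, FDR = 3.10e-04). Mrc1, the mannose receptor CD206, was also lower at E9.0 (-0.91 ± 0.32, FDR = 0.0403), although its groups overlapped. This call was lost without E9.0 control 2, 3 or 4 or E11.5 control 1 or 2 (FDR = 0.0606 to 0.208). Cd68 and Cx3cr1 missed the threshold. Cd68 had a change of -0.41 ± 0.26 (FDR = 0.248), and Cx3cr1, the receptor for fractalkine found on yolk-sac macrophages and microglia, had one of -1.85 ± 0.85 (FDR = 0.108), with 19, 2, 29 and 0 reads at E9.0. The change of Cx3cr1 passed without E9.0 control 3 (-2.70, FDR = 0.0319), on both FPKM scales (FDR = 0.0409 and 0.0229), in the 6-group fit (FDR = 0.0238), between mutant hearts (-6.21, FDR = 0.000201) and in all 14 whole hearts with genotype as a term (-3.47, FDR = 0.00159). In each of these fits Cx3cr1 was tested only because of its reads at E11.5, so that these passes carry no weight as support. It had 0, 1, 0 and 2 reads in the E9.0 mutants.

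Other macrophage lists differed in how many of their genes were lower at E9.0, where 19.6% of all genes tested were called lower. Of 13 other complement and phagocyte genes, 11 were tested, 8 were lower and 0 higher, with C1qc, the third C1q subunit, at 0 reads in all 4 E9.0 controls and the lysosomal protease Ctss at -6.63 ± 0.78 (FDR = 6.85e-05). Ctss had 0, 0, 0 and 3 reads in these controls. Genes so near 0 at E9.0 were tested only because of their reads at E11.5, so that the counts of the macrophage lists carry no weight as support. Of 21 other myeloid receptors and adaptors, 16 were tested, 12 were lower and 0 higher, among them the adaptor Tyrobp (-4.21 ± 0.49, FDR = 6.30e-05). Of 10 resident and yolk-sac macrophage genes, 8 were tested, 3 were lower and 0 higher, and 2 had positive changes. Of 7 microglia-enriched genes, 6 were tested, 3 were lower and 1 was higher, the transcription factor Sall1 (0.96 ± 0.12, FDR = 8.52e-05). Of 8 myeloid transcription factors, 6 were tested, 4 were lower and 0 higher, and all 6 had negative changes. Among these 8, the PU.1 gene Spi1, listed as Sfpi1, had a change of -0.73 ± 0.65 (FDR = 0.405), with 0.0791 to 1.46 CPM at E9.0 and 1.39 to 1.94 CPM at E11.5. Blood lineages were also lower at E9.0, with 10 of 10 megakaryocyte and platelet markers and 10 of 10 erythroid markers called, and their part in these differences was not tested.

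The next question was whether deletion of Kmt2d in early mesoderm changed these genes at E9.0. Lyz2 was lower in all 4 Mesp1Cre mutants, at 0.886, 1.21, 0.554 and 1.05 CPM, than in the 4 controls, at 5.0, 6.43, 5.62 and 14.2 CPM. In reads these were 21, 32, 13 and 27 against 136, 156, 142 and 350. The groups did not overlap, and control 4 stood apart from the other controls. The fold change was -3.05 ± 0.40 on the log2 scale, or 8.27-fold lower (FDR = 4.64e-04), and it was -2.59 without control 4. Lyz2 was the 1 gene called among the 4 that had enough reads for the test, where 5.29% of 15883 genes were called lower and 6.17% higher, and the groups did not overlap for 18.1%. Lyz1, which shares sequence with Lyz2, was at 0.633 to 3.37 CPM in controls and 0 to 0.777 CPM in mutants (-2.98 ± 0.98, FDR = 0.0687).

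The other 3 tested genes had positive changes that did not pass. Cd68 was at 3.54, 8.02, 6.61 and 5.09 CPM in mutants and 3.57, 2.43, 3.56 and 3.90 CPM in controls (0.81 ± 0.29, FDR = 0.0946). Csf1r had a change of 0.24 ± 0.52 (FDR = 0.814), and Mrc1 of 0.11 ± 0.36 (FDR = 0.882). Their groups overlapped.

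The 6 genes with too few reads for the test were Ptprc, Emr1, Cx3cr1, Gp49a, C1qa and C1qb. The Gp49a row had 13, 0, 51 and 7 reads in mutants and 0, 0, 2 and 0 in controls. Cx3cr1 had 0, 1, 0 and 2 reads in mutants and 19, 2, 29 and 0 in controls, and Ptprc 0, 5, 1 and 5 against 32, 8, 11 and 6, the 1 gene of these 6 whose groups did not overlap. C1qa had 0 reads in all 8 libraries, Emr1 had 4 reads in mutant 1 and 0 in the others, and C1qb had 1 read in the mutants and 7 in the controls. When all genes with at least 1 read were tested, the Gp49a row passed (4.94 ± 1.41, FDR = 0.0404) and Cx3cr1 did not (-3.80 ± 1.37, FDR = 0.110). In 1 fit of all 6 groups, which takes the spread from all 20 libraries, Cd68 passed with a change of 0.79 (FDR = 0.0165), where 3593 of 18391 genes did. It also passed with DESeq2 (FDR = 0.0486) and on log2(FPKM + 0.1) (FDR = 0.0497), and it missed the threshold with any 1 library left out.

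Other genes of the macrophage lists moved in both directions in Mesp1Cre mutants. Laptm5, a lysosomal protein of blood cells, fell from 2.80 to 3.97 CPM in controls to 0.211 to 1.19 CPM in mutants (-2.09 ± 0.46, FDR = 0.0131). Stab1, a scavenger receptor of macrophages and endothelium, rose by 0.85 ± 0.15 (FDR = 0.00286). Of the 8 myeloid transcription factors, edgeR tested 4 and called 0, and both tested ligands, Csf1 (-0.28 ± 0.37, FDR = 0.679) and Cx3cl1 (-1.19 ± 0.53, FDR = 0.171), missed the threshold. At an unadjusted p under 0.05, which 26.9% of all genes tested met, there were 2 transcription factors and 1 ligand.

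Markers of other blood cells moved with the same genotype. The summed level of 10 megakaryocyte and platelet markers was 125 to 374 CPM in Mesp1Cre mutants and 69.9 to 95.3 CPM in controls, and 4 of the 9 tested rose: Ppbp (5.28 ± 0.78), Pf4 (3.14 ± 0.45), Gp1ba (1.32 ± 0.29) and Itgb3 (0.66 ± 0.19). None of the 10 was at 0 in either group. Of the mast cell markers, Kit, also a receptor of blood progenitors and endothelium, rose by 1.85 ± 0.21 (FDR = 1.94e-04), and Fcer1a and Ms4a2, the mast cell IgE receptor chains, were at 0 reads in all 8 libraries. The erythroid list summed to 1905 to 7417 CPM in mutants and 5380 to 17828 CPM in controls, with 4 of 10 genes lower. The part of these cells in the values of Lyz2 and Gp49a was not tested.

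**Figure D2:**
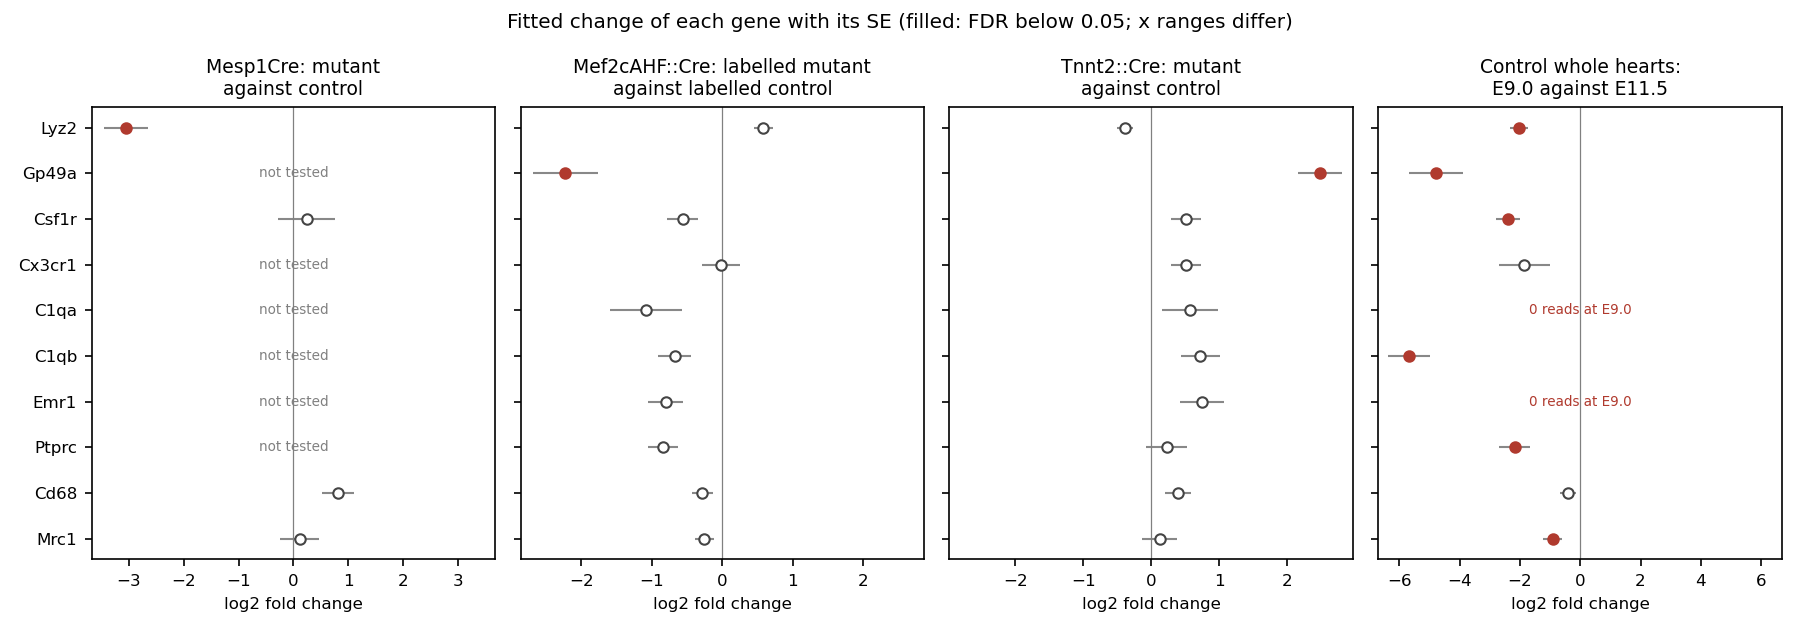
Fitted log2 fold change (x axis, own range in each panel) of each of the 10 genes (y axis) in 4 comparisons, with bars for the SE; filled points have an FDR below 0.05, genes with too few reads are marked as not tested, and genes with 0 reads in all E9.0 controls are marked in place of a point. Lyz2 passed in Mesp1Cre at -3.05, and the Gp49a row passed in Tnnt2::Cre at 2.48. By the labels the Gp49a row passed in Mef2cAHF::Cre at -2.23, with the opposite sign by the column names. Most of the other genes differ between E9.0 and E11.5.

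Deletion in cardiomyocytes was examined at E11.5 with Tnnt2::Cre, a driver that the paper describes as active in embryonic myocardium. Its activity in macrophages was not measured here. The Gp49a row rose in all 3 mutants, at 4.08, 4.69 and 2.51 CPM, over the 3 controls, at 0.729, 0.782 and 0.495 CPM. In reads these were 162, 179 and 90 against 31, 27 and 16, with no overlap. The change was 2.48 ± 0.32 on the log2 scale, or 5.59-fold (FDR = 0.0186), and the row was the 1 gene called of 10, where 0.293% of 17045 genes were called. The call was lost, with the change still between 2.31 and 2.61, when control 1, control 2 or control 3 was left out (FDR = 0.128, 0.0838 and 0.131), and it was also lost in the 6-group fit (FDR = 0.201) and on the FPKM scale (0.81 and FDR = 0.122 on log2(FPKM + 1)).

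Lyz2 was lower in all 3 Tnnt2::Cre mutants, at 28.6, 23.8 and 22.5 CPM, than in the controls, at 33.5, 30.1 and 34.1 CPM. The groups did not overlap, but the change of -0.38 ± 0.12 did not pass (FDR = 0.272), except when mutant 1 was left out (-0.49, FDR = 0.0410). The remaining 8 genes all had positive changes that did not pass. C1qb was at 5.29, 8.31 and 5.02 CPM in mutants and 2.49, 4.87 and 3.99 CPM in controls (0.72 ± 0.29, FDR = 0.377). Emr1 was at 1.99, 2.94 and 1.95 CPM against 1.08, 1.94 and 1.08 CPM (0.75 ± 0.32, FDR = 0.409).

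Csf1r was at 6.53, 10.7 and 6.47 CPM in these mutants and 5.03, 5.91 and 5.78 CPM in controls (0.51 ± 0.22, FDR = 0.413). Cx3cr1 was at 2.60, 2.75 and 2.31 CPM against 1.81, 1.59 and 1.98 CPM (0.51 ± 0.22, FDR = 0.400), and Cd68 had a change of 0.40 ± 0.19 (FDR = 0.462). C1qa (0.57 ± 0.41), Ptprc (0.23 ± 0.30) and Mrc1 (0.13 ± 0.26) overlapped between genotypes. For 7 of the 10 genes the 2 groups did not overlap, against 16.9% of all genes tested, and 6 had an unadjusted p under 0.05, against 11.9%. The median change of the 10 genes was 0.51, beside 0.0037 over all genes tested.

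The other macrophage lists held no call in Tnnt2::Cre, with positive changes in 11 of 13 complement and phagocyte genes, 16 of 19 tested receptors and adaptors and 5 of 7 tested transcription factors. In the resident and yolk-sac list 8 of 9 tested genes had positive changes, and in the microglia-enriched list 2 of 6 had positive and 4 negative ones. An unadjusted p under 0.05, in either direction, was found for 11.9% of all genes tested. In these lists, in the order given, 5, 2, 3, 3 and 0 genes met it, of 13, 19, 7, 9 and 6 tested. Spi1 was at 2.39, 2.62 and 2.15 CPM in mutants and 1.43, 1.94 and 1.39 CPM in controls (0.59 ± 0.24, FDR = 0.387). Mutant 1 carried the most blood RNA of its group, with 1110 CPM for the megakaryocyte list and 129655 CPM for the erythroid list, against at most 270 and 43011 CPM in mutants 2 and 3. Without mutant 1 the change of the Gp49a row was 2.42 (FDR = 0.00747), and mutants 2 and 3 were below all 3 controls in both blood lists. The part of blood RNA in the changes of the Gp49a row and of the other genes was not tested. The 3 controls had 290 to 519 CPM for the megakaryocyte list and 101682 to 156821 CPM for the erythroid list.

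For Mef2cAHF::Cre the same genes were compared in right ventricles and outflow tracts. Labelled mutants 1 and 2 and labelled control 1 had 24905, 25557 and 25872 genes with a read. Labelled mutant 3 and labelled controls 2 and 3 had 22974, 22296 and 22107, and the part of this difference was not tested. The Gp49a row was lower in the libraries labelled mutant, at 1.67, 0.770 and 1.03 CPM, than in those labelled control, at 2.25, 8.09 and 5.94 CPM, without overlap. The change was -2.23 ± 0.46 by the labels (FDR = 0.0399) and the same size with a positive sign by the column names. It was the 1 gene called of 10, where 2.85% of 16920 genes were called. It missed the threshold when labelled mutant 1, 2 or 3 was left out (FDR = 0.121, 0.184 and 0.141), when labelled control 2 or 3 was left out (FDR = 0.0566 and 0.0818), with the replicate block (FDR = 0.0733), on both FPKM scales (FDR = 0.0800 and 0.101) and in the 6-group fit (FDR = 0.263).

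Lyz2 was higher in the libraries labelled mutant, at 19.1, 21.7 and 26.1 CPM, than in those labelled control, at 13.4, 15.3 and 16.2 CPM. The groups did not overlap, and the change of 0.58 ± 0.13 lay just outside the threshold (FDR = 0.0510). It passed with DESeq2 (FDR = 0.00323), with all genes of at least 1 count (FDR = 0.00284), with at least 10 counts in every library (FDR = 0.0491) and with the replicate block (FDR = 0.0253). These were 4 of 9 other settings. Lyz2 missed the threshold with each of the 6 libraries left out (FDR = 0.054 to 0.173) and in the 6-group fit (FDR = 0.541). The remaining 8 genes had negative changes by the labels. Ptprc was at 2.34, 2.35 and 3.50 CPM in the libraries labelled mutant and 4.36, 5.66 and 4.69 CPM in those labelled control (-0.84 ± 0.21, FDR = 0.0740).

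Emr1 was at 1.31, 1.32 and 0.948 CPM in the libraries labelled mutant and 1.87, 2.46 and 1.89 CPM in those labelled control (-0.80 ± 0.25, FDR = 0.131). C1qb was at 3.16, 1.87 and 2.60 CPM against 3.78, 4.89 and 3.52 CPM (-0.67 ± 0.24, FDR = 0.170). Csf1r had a change of -0.56 ± 0.22 (FDR = 0.220), C1qa of -1.08 ± 0.51 (FDR = 0.307), Cd68 of -0.29 ± 0.15 (FDR = 0.371), Mrc1 of -0.26 ± 0.14 (FDR = 0.370) and Cx3cr1 of -0.013 ± 0.27 (FDR = 0.987). For 7 of the 10 genes the groups did not overlap, against 23.9% of all genes tested, and 6 had an unadjusted p under 0.05, against 17.9%. The median change of the 10 genes was -0.62 by the labels, beside -0.0067 over all genes tested.

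By the labels, then, 9 of the 10 genes had negative and 1 a positive change in Mef2cAHF::Cre, and in Tnnt2::Cre 9 had positive and 1 a negative change, Lyz2 being the exception both times. By the column names the Mef2cAHF::Cre signs are those of Tnnt2::Cre for each of the 10 genes. The changes of Cx3cr1 in Mef2cAHF::Cre and of Ptprc and Mrc1 in Tnnt2::Cre are smaller than their SE.

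By the labels the other macrophage lists went both ways. Changes were negative in 8 of 12 tested complement and phagocyte genes, 15 of 19 receptors and adaptors and 6 of 8 transcription factors. The resident and yolk-sac list had 5 negative changes of 9, and the microglia-enriched list 2 of 7, with 5 positive. In this order, 6, 6, 2, 4 and 3 genes had an unadjusted p under 0.05, against 17.9% of all genes tested. Laptm5 fell by 1.38 on the log2 scale in the libraries labelled mutant (SE 0.26, FDR = 0.0296), Aif1, an actin-binding protein of macrophages, fell by 1.72 (SE 0.38, FDR = 0.0482), and F13a1, the coagulation factor XIII subunit of macrophages and platelets, fell by 1.39 (SE 0.29, FDR = 0.0409). Ncf4, a subunit of the phagocyte NADPH oxidase, rose by 1.89 ± 0.35 (FDR = 0.0291), and Runx1, a transcription factor of blood stem cells and megakaryocytes, fell by 1.56 (SE 0.33, FDR = 0.0409). All of these signs are opposite by the column names. The megakaryocyte and platelet list summed to 103 to 192 CPM in the libraries labelled mutant and 392 to 887 CPM in those labelled control, with 8 of 10 genes lower and none at 0 in either group, and the erythroid list to 24521 to 46086 CPM against 7127 to 31756 CPM. Their part in the change of the Gp49a row was not tested.

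**Figure D3:**
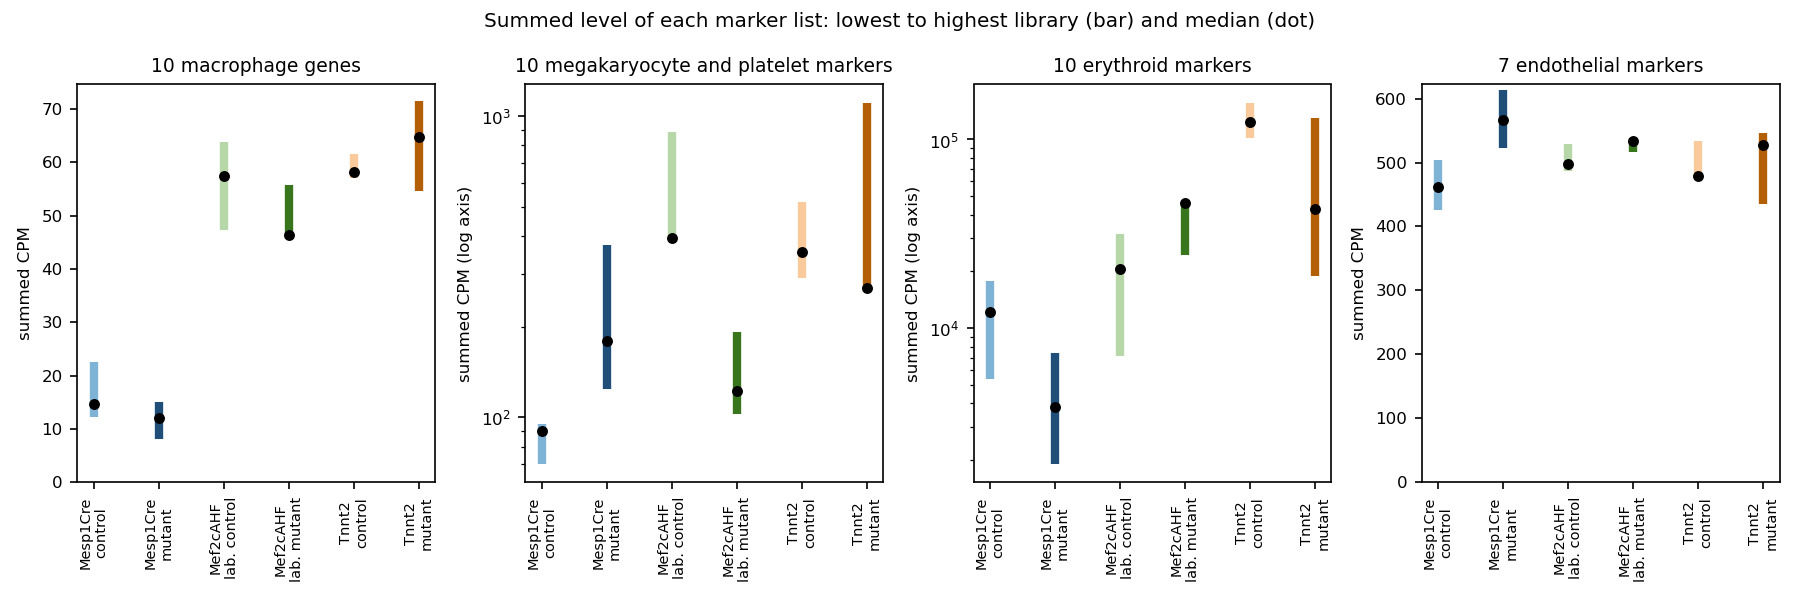
Summed CPM after TMM scaling (y axis, log scale for the 2 middle panels and linear from 0 for the others) of the 10 macrophage genes and of 3 marker lists in the 6 groups (x axis), with bars from the lowest to the highest library and dots for the median; lab. stands for labelled. The macrophage genes sum to 8.06 to 22.5 CPM at E9.0 and to 45.6 to 71.4 CPM at E11.5, while the megakaryocyte list runs from 103 to 192 CPM in Mef2cAHF::Cre libraries labelled mutant and from 392 to 887 CPM in those labelled control.

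Whether the genotype effect differed between Cre lines was tested as an interaction in 1 fit of all 20 libraries. Cx3cr1, Ptprc and the Gp49a row had too few reads in Mesp1Cre for a test within that line and entered this fit through the E11.5 libraries, so that their differences from Mesp1Cre are given as descriptions. With at least 10 counts in every library, Lyz2 passed between Mesp1Cre and Tnnt2::Cre (-2.66, FDR = 0.00187), and Lyz2 (-3.63, FDR = 9.44e-06) and Cd68 (1.09, FDR = 0.0316) passed between Mesp1Cre and Mef2cAHF::Cre by the labels. Between Mesp1Cre and Tnnt2::Cre, 2 of the 10 genes differed, where 3.04% of 18391 genes were called: Lyz2, with a difference of -2.68 ± 0.40 (FDR = 0.00225), and Cx3cr1, with -4.35 ± 1.18 (FDR = 0.0489). The call for Cx3cr1 was lost without any 1 of the 6 Tnnt2::Cre libraries, Mesp1Cre control 1 or 3 or Mesp1Cre mutant 1, 2 or 3 (FDR = 0.0529 to 0.123). Between Mesp1Cre and Mef2cAHF::Cre by the labels, 4 of 10 differed, where 11.3% of genes were called: Lyz2 (-3.64 ± 0.40, FDR = 1.49e-05), Cx3cr1 (-3.82 ± 1.19, FDR = 0.0417), Cd68 (1.07 ± 0.33, FDR = 0.0398) and the Gp49a row (7.18 ± 1.41, FDR = 0.0024). Of these, Cx3cr1 was lost without any 1 of the 6 Mef2cAHF::Cre libraries, Mesp1Cre control 1 or 3 or Mesp1Cre mutant 1, 2 or 3 (FDR = 0.0568 to 0.0972). Cd68 was lost without Mesp1Cre control 1 or 2, Mesp1Cre mutant 2 or 3, labelled mutant 1 or 3 or labelled control 1, 2 or 3 (FDR = 0.0502 to 0.105). By the column names, 2 of 10 differed, where 1.63% of genes were called: Lyz2 (-2.48 ± 0.40, FDR = 0.00595) and Ptprc (-3.13 ± 0.76, FDR = 0.0419). The other settings and left-out libraries were fitted for the interactions by the labels only, so these 2 calls were not checked in them. The difference for Lyz2 between the E9.0 line and each E11.5 line was thus called by either reading, and stage and line cannot be told apart in it.

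Between Mef2cAHF::Cre and Tnnt2::Cre the reading of the labels decided the outcome. By the labels the Gp49a row differed (-4.71 ± 1.09, FDR = 0.0203), where 3.19% of genes were called. The call was lost without Tnnt2::Cre control 1, 2 or 3, labelled mutant 2 or 3 or labelled control 2 (FDR = 0.0516 to 0.0673). By the column names edgeR called 0 of the 10 genes and 0% of all 18391 genes, and 0 of the 10 had an unadjusted p under 0.05. The difference for the Gp49a row was then -0.25 ± 1.04.

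The balance between macrophage genes was also described within each library, as FPKM ratios to Csf1r, which do not depend on library size. These ratios were chosen after the levels had been seen and were given no test. Lyz2 over Csf1r was 6.83 to 13.4 in Tnnt2::Cre mutants and 15.6 to 20.4 in controls, 1.32 to 3.38 in Mesp1Cre mutants and 16.4 to 48.2 in controls, and 10.3 to 15.2 in Mef2cAHF::Cre libraries labelled mutant and 4.45 to 5.97 in those labelled control. The ranges did not overlap in any line. At E9.0 Csf1r had only 9 to 41 reads in controls and 19 to 40 in mutants, and Lyz2 had 13 to 32 in mutants. In each line Csf1r and Lyz2 changed in opposite directions, which widens the ratio. The share of other gene pairs without overlap was not computed. The Gp49a row over Csf1r was 0.435 to 0.702 in Tnnt2::Cre mutants against 0.0960 to 0.163 in controls, and 0.150 to 0.342 in Mef2cAHF::Cre libraries labelled mutant against 0.346 to 0.866 in those labelled control. At E9.0 it ran from 0 to 1.91 in mutants and from 0 to 0.249 in controls and overlapped.

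**Figure D4:**
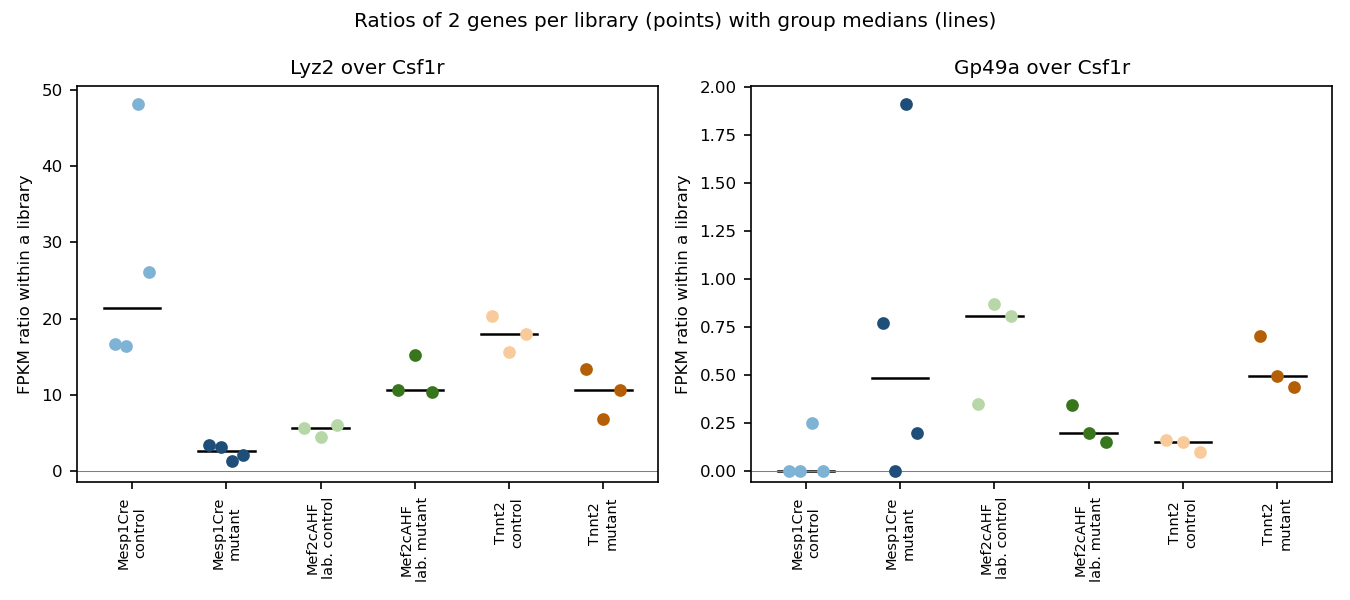
FPKM of Lyz2 (left) and of the Gp49a row (right) divided by FPKM of Csf1r in the same library (y axes, linear), by group (x axis), with 1 point per library and a line at the group median; lab. stands for labelled. Lyz2 over Csf1r is 1.32 to 3.38 in the 4 Mesp1Cre mutants and 16.4 to 48.2 in their controls, and in Tnnt2::Cre the Gp49a ratio of every mutant, 0.435 or more, is above that of every control, 0.163 or less.

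Within groups the 10 genes did not vary as a unit. After the group means were taken out, the correlation of a gene with the mean of the other 9 over the 20 libraries ran from -0.44 for Lyz2 to 0.70 for C1qb, with 0.50 for Mrc1, 0.43 for Ptprc and -0.13 for the Gp49a row. Many of the points at E9.0 are at or near 0 reads. The genes outside the list whose pattern was most like the mean of the 10 were Ube2e2, a ubiquitin-conjugating enzyme (r = 0.84), the kinase Ikbke (r = 0.82) and the small GTPase Rab39 (r = 0.81), of 14149 genes ranked, and none of the 10 most alike was in a macrophage list. These correlations share libraries and depth and are given as descriptions.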

How the data were processed

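RNA was isolated from dissected E9.0 or E11.5 hearts, and the authors deposited for each gene and library a read count that was not normalized. Reads had been aligned to mm9 (TopHat2 2.0.8b per the submitters' processing notes) and assigned to genes with featureCounts. The deposited FPKM was computed by the authors with USeq 8.6.4 from the reads, gene length and library total, and the deposited log2 variance-corrected counts of the same program were not used here. The paper and the labels differ on the library kit (TruSeq, or amplified NuGEN cDNA) and on the instrument.

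Groups followed the titles of the labels. For Mef2cAHF::Cre the column names give the opposite genotypes, and both readings are given for the main fits. Counts were compared within each line with edgeR 4.0.16 in R 4.3.3 (filterByExpr, TMM, quasi-likelihood F test, Benjamini-Hochberg adjustment, threshold 0.05, two-sided), and interactions in 1 fit of 6 groups. The SE was taken as the absolute log2 fold change over the root of the F statistic. CPM was scaled by TMM over all 20 libraries. The edgeR fits of 2 groups and the interactions were tested on simulated data, and the alternative settings were not. The alternatives were DESeq2 size factors, the Wald test of DESeq2 1.42.0, other filters, limma 3.58.1 on log2 FPKM, replicate and name-code blocks, a 6-group fit, mutant hearts or all 14 whole hearts for the stage comparison, and each library left out.

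The 10 genes and the marker lists were chosen with earlier results of these data known. All 10 genes are named. From other lists the genes past the threshold were named, at most 4 per list and comparison by size, besides defining markers and genes at 0. A listed gene is not reported here. The FPKM ratios were added after the values were seen. Replicate libraries differed by more than sampling noise in each of 24 pairs (lowest chi-square per degree of freedom 8.74). PCR duplicates cannot be told from molecules in these counts, and the floor of 3 reads covers counting error only.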

Additional observations from a re-analysis of the deposited data

Results flagged for a closer look

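Among the 17 groups of 4 libraries in which a gene had reads, 4 had a library far from the other 3. Chance gives about 1 in 20 such groups where values are continuous, which does not apply to the 3 groups below whose other libraries had 0 reads. Lyz2 reached 14.2 CPM in Mesp1Cre control 4, Emr1 0.169 CPM in Mesp1Cre mutant 1 and C1qb 0.0378 CPM in Mesp1Cre mutant 2, and the Gp49a row 0.0791 CPM in Mesp1Cre control 3. The last 3 values rest on 4 reads, 1 read and 2 reads, in groups whose other libraries had 0.

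Genotype effects that differed between Cre lines in the edgeR interaction test were also flagged. On the log2 scale the difference between Mesp1Cre and Tnnt2::Cre was -2.68 for Lyz2 and -4.35 for Cx3cr1. Between Mesp1Cre and Mef2cAHF::Cre by the labels it was -3.64 for Lyz2, 1.07 for Cd68, -3.82 for Cx3cr1 and 7.18 for the Gp49a row, and by the column names -2.48 for Lyz2 and -3.13 for Ptprc. Between Mef2cAHF::Cre and Tnnt2::Cre by the labels it was -4.71 for the Gp49a row. Cx3cr1, Ptprc and the Gp49a row had too few reads in Mesp1Cre for a test within that line, so that their differences from Mesp1Cre are descriptions.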

How the results depend on the processing

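The fall of Lyz2 in Mesp1Cre mutants passed under all 9 other settings (-3.06 to -1.85) and with each of 8 libraries left out (-3.22 to -2.59). The counts below are of genes past FDR 0.05, first among the 10 and then among all genes, and the cause of each change was not tested. In Mesp1Cre 1 and 1821 became 2 and 2631 with DESeq2, 2 and 1712 with all genes of at least 1 count, 2 and 1924 with log2(FPKM + 0.1), and 5 and 3593 in the 6-group fit, which Ptprc, Cx3cr1 and the Gp49a row entered through the E11.5 libraries. In Mef2cAHF::Cre 1 and 482 became 3 and 1103 with DESeq2, 3 and 1311 with all genes, 2 and 466 with at least 10 counts in every library, 0 and 291 with log2(FPKM + 0.1), 0 and 253 with log2(FPKM + 1), and 0 and 129 in the 6-group fit. In Tnnt2::Cre 1 and 50 became 0 and 22 with log2(FPKM + 0.1), 0 and 19 with log2(FPKM + 1), 0 and 82 in the 6-group fit, and, among all genes, 368 with DESeq2 and 120 with all genes kept. Between stages 8 and 6401 became 2 and 5967 with at least 10 counts in every library, which leaves out genes near 0, and 9 of 10 in the 6-group fit and in all 14 whole hearts. Of the interactions, Mesp1Cre against Tnnt2::Cre went from 2 to 1 with that filter and with both FPKM scales (559 genes becoming 649, 324 and 368, and 1242 with DESeq2). Mesp1Cre against Mef2cAHF::Cre went from 4 to 2 with that filter or the column names (2076 becoming 1960 and 299, and 3156 and 3285 on the FPKM scales). Mef2cAHF::Cre against Tnnt2::Cre went from 1 to 0 with that filter or the column names, and to 2 and 5 on the FPKM scales (586 becoming 657, 0, 1375 and 1519, and 1035 with DESeq2).

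With 1 library left out, the counts ran from 1 to 1 and 1052 to 2161 in Mesp1Cre, 0 to 1 and 75 to 662 in Mef2cAHF::Cre, 0 to 2 and 4 to 896 in Tnnt2::Cre, and 7 to 8 and 4758 to 6156 between stages. For the interactions they ran from 1 to 2 and 167 to 1037, 2 to 4 and 1225 to 2471, and 0 to 1 and 295 to 1031, in the order above. Changes near 0 turned sign with a library left out: Csf1r (-0.0461 to 0.56) and Mrc1 (-0.13 to 0.33) in Mesp1Cre, Cx3cr1 (-0.23 to 0.17) in Mef2cAHF::Cre, Ptprc (-0.0481 to 0.47) and Mrc1 (-0.0725 to 0.39) in Tnnt2::Cre, and Kmt2d (-0.0269 to 0.15) between stages. On the FPKM scales the median of all genes shifted, by 0.15 for Mesp1Cre, 0.11 for Tnnt2::Cre and -0.13 for Mef2cAHF::Cre at the most, and changes there are relative to it. The interaction of Ptprc between Mesp1Cre and Mef2cAHF::Cre by the labels, -1.45, became 0.21 and 0.31 on the FPKM scales. By the column names the Mef2cAHF::Cre changes were -0.58 for Lyz2, 0.56 for Csf1r, 0.84 for Ptprc, 0.80 for Emr1, 0.29 for Cd68, 0.26 for Mrc1, 0.013 for Cx3cr1, 2.23 for Gp49a, 1.08 for C1qa, 0.67 for C1qb and -0.32 for Kmt2d, and the interaction of Kmt2d with Mesp1Cre became 0.088.

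Same-numbered libraries did not vary together, with correlations of -0.03 to 0.09 in Mesp1Cre, -0.01 to 0.18 in Mef2cAHF::Cre and -0.04 to 0.06 in Tnnt2::Cre, so that the numbers were not taken as a pairing, and not every library correlated best with its own number in any line. With the replicate block, Gp49a in Mef2cAHF::Cre had FDR = 0.0733 and Lyz2 FDR = 0.0253, Tnnt2::Cre had 28 genes past the threshold in place of 50, and the interactions of Mesp1Cre had 1 of the 10 in place of 2 and 2 in place of 4, with 445 and 1816 of all genes. At E9.0, 6 of the 10 genes had too few reads for the test.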
